A study of Homo sapiens with 7 samples.

Results

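The second hour of light was followed by comparing opto-PKR cells lit for 120 min with the same kind of cells lit for 60 min. All genes with at least 20 transcript counts in either library were compared, which gave 12571 genes of the 18817 listed in any of the study's tables, spike-in RNA left out. The cells were H4, an established human neuroglioma line, and in every group, the unlit one included, they carried opto-PKR (Cry2Olig-PKR), the kinase PKR joined to a protein that clusters under blue light. Per the labels, cells on a fibronectin-treated glass-bottom plate were lit without interruption and lysed at once, and 1 library of total RNA was made for each of 7 times (0, 60, 120, 240, 480, 600 and 720 min) with an adaptation of CEL-Seq2, which tags the 3' ends of transcripts and counts them by unique molecular identifier (UMI). The comparison therefore has 1 library on each side and no test. Every 95% interval below is an exact binomial (Clopper-Pearson) interval and covers counting error only. It takes counts corrected for UMI collisions as plain counts. Error that this correction adds, in abundant genes above all, is not covered. Neither unlit cells of the same age in the plate nor lit cells lacking opto-PKR were analysed here, so the effects of light, of PKR and of time in the plate cannot be told apart.

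PKR (gene EIF2AK2) is a kinase that normally senses double-stranded RNA. Once clustered, it phosphorylates the translation factor eIF2, which lowers protein synthesis in general while favouring translation of ATF4, the central transcription factor of the integrated stress response (ISR). Stress and growth signals also switch on immediate early genes, which encode short-lived transcription factors, and these are commonly followed by genes for secreted signals, feedback inhibitors and enzymes. PKR is also known to act on NF-kB, the transcription factor family behind many inflammatory genes.

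The 60 min library held 7048135 transcripts and the 120 min library 7568889, at 2.11 and 2.08 reads per UMI. Levels are given in CPM, transcript counts scaled to a library total of 1000000, so they are shares of the RNA counted and not amounts per cell, and fewer cells with a transcript cannot be told apart from less of it per cell. EIF2AK2 stood at 188, 114, 87.2 and 67.1 CPM at 0, 60, 120 and 240 min (some of its reads are shared with other genes). At 600 and 720 min it was at 121 and 124 CPM. Whether these counts include transcripts of opto-PKR was not tested. Of the 12 neural and glial markers, 5 could be compared, among them VIM (874 and 914 CPM at 60 and 120 min) and CD44 (714 and 625 CPM), while GFAP, S100B and FABP7, markers of astrocytes and radial glia, were not listed. Markers of blood cells summed to 10.9 and 8.98 CPM, with 4 of 10 at 0 in both libraries, those of endothelium to 18.4 and 19.3 CPM, with 4 of 8 at 0, and those of epithelium, mostly from the widely expressed KRT18, to 125 and 136 CPM, with 4 of 10 at 0.

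A gene was called higher or lower when it differed at least 2-fold and its interval excluded equality. By that rule 124 genes were higher at 120 min, which is 0.986% of the genes compared, and 234 were lower, which is 1.86%. The median log2 ratio of all genes was 0.03. Changes past 4-fold were few, with 8 genes higher and 17 lower. At any size, the interval lay above equality for 2913 genes (23.2%) and below it for 2358 (18.8%). Most called genes were scarce: the median higher gene went from 3.76 to 8.79 CPM and the median lower gene from 8.09 to 3.04 CPM, against 33.6 and 34.7 CPM for all genes. Among genes whose larger count was 1000 or more, 0.206% were higher and 0.258% lower, whereas among those at 20 to 49 counts the shares were 3.63% and 7.00%. The 124 higher genes together went from 1380 to 3230 CPM, and the 234 lower genes from 5300 to 2180 CPM. Near the fold threshold, 47 higher genes lay between 2- and 2.2-fold and 95 more genes lay between 1.8- and 2-fold outside it, and on the lower side these numbers were 63 and 102. Near the count minimum, 33 of the 323 genes with a larger count of 20 to 24 were called, and 375 genes at 15 to 19 were not compared.

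**Figure D1:**
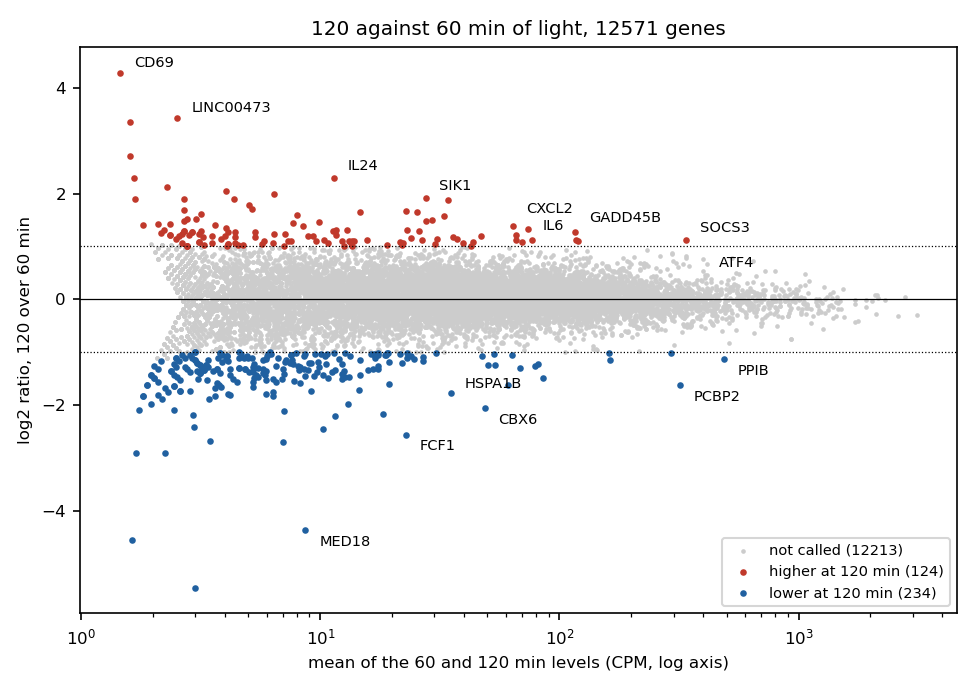
Each point is 1 of 12571 genes, with the mean of its 60 and 120 min levels in CPM on a log axis across and the log2 ratio of 120 over 60 min upward, and dotted lines mark 2-fold. The 124 genes called higher (red) and 234 called lower (blue) lie mostly at low levels, with SOCS3, GADD45B, PCBP2 and PPIB among the exceptions.

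The gene lists were chosen with earlier results of these data known, and their shares stand beside 0.986% higher and 1.86% lower over all genes compared. A gene under 20 counts in 1 library entered these shares only through the other, as IL1A, NFKBIZ, INHBE and DLL1 did through 120 min. How far this filter raised the shares was not tested. Counts of intervals above and below equality stand beside 23.2% and 18.8% over all genes. Among the lists, cytokines and chemokines had the largest share of higher genes. Of 13 compared from a list of 20, 4 were higher (30.8%) and 0 lower, and all 13 had ratios above equality, with a list median of 0.76 (log2). IL24, a cytokine of the IL-10 family, had 27 counts at 60 min and 143 at 120 min, or 3.83 and 18.9 CPM, a 4.93-fold difference (95% interval 3.25 to 7.74). IL6, a central inflammatory cytokine, had 299 and 806 counts, or 42.4 and 106 CPM (2.51-fold, 2.20 to 2.88). These genes had different starting points in the first hour. The IL6 level had been 6.12 CPM in unlit cells, so it was already far higher at 60 min (log2 ratio 2.79), whereas IL24 had been 2.12 CPM and its ratio of 60 over 0 min, 0.86 (-0.06 to 1.80), did not exclude equality. CXCL2, a neutrophil-attracting chemokine with close relatives that share its reads, stood at 9.29, 35.2 and 92.1 CPM at 0, 60 and 120 min (2.62-fold over the hour, 2.26 to 3.04). IL1A, an alarm cytokine of the IL-1 family, had only 11 and 36 counts, 1.56 and 4.76 CPM (3.05-fold, 1.52 to 6.64). CCL2, IL8 and LIF lay under the 2-fold threshold with intervals above equality: CCL2, a monocyte chemokine, stood at 161 and 306 CPM (1.90-fold, 1.77 to 2.04), IL8 (now CXCL8), a neutrophil chemokine, at 146 and 183 CPM (1.25-fold, 1.15 to 1.36), and LIF, a cytokine of the IL-6 family, at 88.5 and 110 CPM (1.24-fold, 1.12 to 1.38). LIF and IL8 had log2 ratios of 2.33 and 2.28 for 60 over 0 min and of 0.31 and 0.32 for 120 over 60 min, and IL8 stood higher at 240 min, at 291 CPM. The 60 min library is shared by both hours' ratios, so they are given side by side only.

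Among the feedback genes of NF-kB, 2 of 18 compared were higher (11.1%), with a list median of 0.20. TNFAIP3 encodes A20, an enzyme that edits ubiquitin chains and restrains NF-kB, and had 179 and 404 counts, 25.4 and 53.4 CPM (2.10-fold, 1.76 to 2.52). NFKBIZ, an atypical IkB protein that acts in the nucleus and is needed for part of the IL6 response, had 17 and 44 counts (2.41-fold, 1.35 to 4.50). BIRC3, an inhibitor of apoptosis and NF-kB target, reached 151 CPM from 81.4 (1.86-fold, 1.68 to 2.06). UBD, the ubiquitin-like modifier FAT10, is outside that list. It went the other way in the first hour, from 14.7 CPM at 0 min to 10.9 at 60 min, and then stood at 34.6 CPM at 120 min (3.17-fold, 2.45 to 4.14) and 73.1 at 240 min.

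The promoters of all compared genes were read for an NF-kB motif, searched on both strands as GGGA, any base and TTTCC in the 250 bases before the start in RefSeq's table for GRCh38.p14. Among the higher genes it was present before CXCL2, IL6, NFKBIZ and TNFAIP3, and their sequences are shown because these 4 genes, all described above, carry all the matches in that set. The windows are chr4:74099196-74099445 (minus strand) for CXCL2, chr7:22726950-22727199 (plus strand) for IL6, chr3:101827740-101827989 (plus strand) for NFKBIZ and chr6:137867009-137867258 (plus strand) for TNFAIP3. Each is written 5' to 3' on the gene's own strand up to the base before the start, with the match in capitals.
CXCL2: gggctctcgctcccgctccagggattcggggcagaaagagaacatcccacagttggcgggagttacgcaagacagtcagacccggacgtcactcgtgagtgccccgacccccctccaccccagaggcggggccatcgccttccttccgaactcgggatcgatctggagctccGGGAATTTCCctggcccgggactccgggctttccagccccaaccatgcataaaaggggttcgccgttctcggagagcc 
IL6: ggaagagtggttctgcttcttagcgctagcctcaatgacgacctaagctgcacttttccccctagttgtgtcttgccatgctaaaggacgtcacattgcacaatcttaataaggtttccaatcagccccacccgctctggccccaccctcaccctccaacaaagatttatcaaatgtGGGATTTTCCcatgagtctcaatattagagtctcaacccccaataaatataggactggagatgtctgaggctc 
NFKBIZ: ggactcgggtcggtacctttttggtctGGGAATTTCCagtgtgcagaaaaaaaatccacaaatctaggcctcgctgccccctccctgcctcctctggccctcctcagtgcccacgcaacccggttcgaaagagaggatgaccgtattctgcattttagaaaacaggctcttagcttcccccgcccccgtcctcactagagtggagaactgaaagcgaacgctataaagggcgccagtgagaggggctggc 
TNFAIP3: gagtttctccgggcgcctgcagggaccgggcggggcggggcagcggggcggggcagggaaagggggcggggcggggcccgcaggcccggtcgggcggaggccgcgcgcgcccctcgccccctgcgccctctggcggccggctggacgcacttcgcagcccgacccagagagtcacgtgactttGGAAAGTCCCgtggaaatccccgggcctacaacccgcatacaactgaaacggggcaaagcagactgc
The match lies 78 to 69 bases before the start in CXCL2, 73 to 64 in IL6 and 223 to 214 in NFKBIZ, and in TNFAIP3 it is on the opposite strand at 67 to 58. In all, 4 of the 92 higher genes with a promoter in the table held the motif (4.35%), as did 2 of 135 lower genes (1.48%), ERCC6L2 and SLC9A5, against 0.536% of the 9894 compared genes with a promoter and 0.546% of all 27305 promoters. The other motifs searched are given for the higher genes, the lower genes, the compared genes and all promoters in turn. The cAMP response element TGACGTCA was present in 2.17%, 0.741%, 2.98% and 1.77%, and its last letters CGTCA, which every full element also holds, in 29.3%, 25.2%, 30.7% and 21.7%. The AP-1 motif TGANTCA was present in 7.61%, 5.19%, 3.83% and 6.60%. The share in the higher genes was thus near that in all promoters but above that in the compared genes. A composite site for ATF4 and C/EBP proteins, TGATGNAA, was present in 2.17%, 1.48%, 1.33% and 3.19%. The heat shock element GAANNTTC was found in 5.43%, 2.96%, 3.96% and 5.85%, and the E-box CACGTG in 9.78%, 7.41%, 9.05% and 6.49%. The serum response element core was in 0 of the 92 higher and 0 of the 135 lower promoters and in 0.106% of all. Base composition differed too, with a median GC content of 62.8% in the higher, 60.8% in the lower and 65.2% in the compared genes' promoters, and its part in these shares was not tested. Such matches describe letters in a window, and the differences between shares were not tested. Each motif was searched in a single form, so a gene without a match, such as UBD for NF-kB, may hold another form.

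Transcription factors of the immediate early class had a larger median ratio in the first hour than in the second. Their 20 compared members had a median log2 ratio of 1.41 for 60 over 0 min and 0.34 for 120 over 60 min. In the second hour 13 had intervals above equality and 1 below, and 1 member was called higher (5.00%). The called gene was EGR2, a zinc finger factor, at 1.29, 28.4, 57.3 and 24.9 CPM at 0, 60, 120 and 240 min. Its second-hour ratio was 2.02-fold (1.71 to 2.40), at the threshold. EGR1, its close relative, differed little, at 280 and 262 CPM (0.937-fold, 0.880 to 0.998), and FOS, a subunit of the AP-1 dimer, stood at 38.6 and 48.0 CPM (1.24-fold, 1.06 to 1.46). JUN and JUND, AP-1 partners of FOS, were further apart: JUN stood at 210 and 383 CPM (1.82-fold, 1.71 to 1.94) and JUND at 208 and 381 CPM (1.84-fold, 1.72 to 1.96). FOSL1, another FOS relative, stood at 287 and 309 CPM (1.08-fold, 1.02 to 1.15). The feedback inhibitors of MAP kinase signalling, 14 genes, had no called member and a median of 0.25, after 1.48 for the first hour. Of them, 8 had intervals above equality and 0 below. ERRFI1, which blocks the EGF receptor, and SPRY4, a Sprouty inhibitor, were 1.31-fold (1.23 to 1.40) and 1.35-fold (1.27 to 1.45) higher.

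Kruppel-like factors gave 1 higher gene of 13 (7.69%) at a list median of 0.54, and 12 of 13 lay above equality. KLF15, a regulator of amino acid and glucose metabolism, had 93 and 249 counts, 13.2 and 32.9 CPM (2.49-fold, 1.96 to 3.20). Below the fold threshold were KLF9, at 244 and 434 CPM (1.78-fold, 1.67 to 1.88), and KLF10, at 190 and 335 CPM (1.77-fold, 1.65 to 1.89). Repressors were also among the higher genes, named after their values were seen. BCL6, a zinc finger repressor, stood at 13.4, 14.9 and 36.7 CPM at 0, 60 and 120 min (2.47-fold, 1.96 to 3.12). PRDM1 encodes BLIMP1, another repressor, and stood at 12.7, 48.0 and 105 CPM (2.18-fold over the second hour, 1.92 to 2.49). CITED2, which competes for the coactivators CBP and p300, went from 12.5 to 25.5 CPM (2.04-fold, 1.58 to 2.66). NR1D1, the haem-sensing clock repressor REV-ERB alpha, was the 1 higher gene of 16 clock genes (6.25%, list median 0.10), at 19.7 and 40.8 CPM (2.07-fold, 1.69 to 2.55).

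The regulators of the ISR differed more moderately and mostly in 1 direction. Of 18 compared, 1 was called (5.56%), but 13 had intervals above equality and 2 below, and the list median was 0.59. The called gene was NFIL3, a bZIP repressor, with 533 and 1233 counts, 75.6 and 163 CPM (2.15-fold, 1.94 to 2.39). ATF4 stood at 311, 349 and 464 CPM at 0, 60 and 120 min (1.33-fold over the second hour, 1.26 to 1.40). Several known ISR targets had larger ratios than ATF4 itself. DDIT3, which encodes CHOP, was at 39.7 and 64.1 CPM (1.61-fold, 1.39 to 1.88), and ATF3, a stress-induced repressor, at 127 and 192 CPM (1.51-fold, 1.39 to 1.64). PPP1R15A, the eIF2 phosphatase subunit GADD34, was at 153 and 245 CPM (1.60-fold, 1.48 to 1.72), and CHAC1, a glutathione-degrading enzyme, at 178 and 284 CPM (1.60-fold, 1.49 to 1.71). TRIB3, a pseudokinase that restrains ATF4, had gone from 44.6 CPM at 0 min to 35.8 at 60 min, and was at 53.4 CPM at 120 min (1.49-fold, 1.27 to 1.75). Both genes with intervals below equality are known ISR genes too: ATF5, a bZIP factor, at 143 and 86.5 CPM (0.603-fold, 0.546 to 0.666, with shared reads), and the secreted hormone GDF15 at 417 and 292 CPM (0.701-fold, 0.663 to 0.741).

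Amino acid synthesis and transport genes, which ATF4 is known to control, had no called member among 20, yet 17 had intervals above equality and 1 below. The list summed to 3910 CPM at 60 min, and the median of all genes compared was 33.6 CPM. Well-counted genes have narrower intervals, so small ratios can exclude equality. Shares among genes of like abundance were not computed. Their median was 0.35 for the second hour, beside -0.01 for the first. PSPH, the last enzyme of serine synthesis (shared reads), stood at 26.6, 20.4 and 39.6 CPM at 0, 60 and 120 min (1.94-fold over the second hour, 1.59 to 2.38). CTH, which makes cysteine from cystathionine, went from 21.3 to 38.7 CPM (1.82-fold, 1.49 to 2.23) and GPT2, the mitochondrial alanine aminotransferase, from 67.3 to 117 CPM (1.74-fold, 1.55 to 1.95). ASNS, asparagine synthetase, was at 247, 208 and 277 CPM at 0, 60 and 120 min (1.33-fold, 1.25 to 1.43). The transporter genes SLC7A11, for the cystine carrier, and SLC1A5, for the glutamine carrier, stood at 1.09-fold (1.05 to 1.14) and 1.07-fold (1.02 to 1.11). Cytosolic tRNA synthetases, 20 genes, had 0 called and a median of 0.10, with GARS highest at 1.45-fold (1.38 to 1.53). Host transcripts of small nucleolar RNAs had 0 of 11 called, 10 intervals above equality and a median of 0.48: GAS5 went from 133 to 215 CPM (1.61-fold, 1.49 to 1.75) and SNHG1 from 884 to 1240 CPM (1.40-fold, 1.35 to 1.44).

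**Figure D2:**
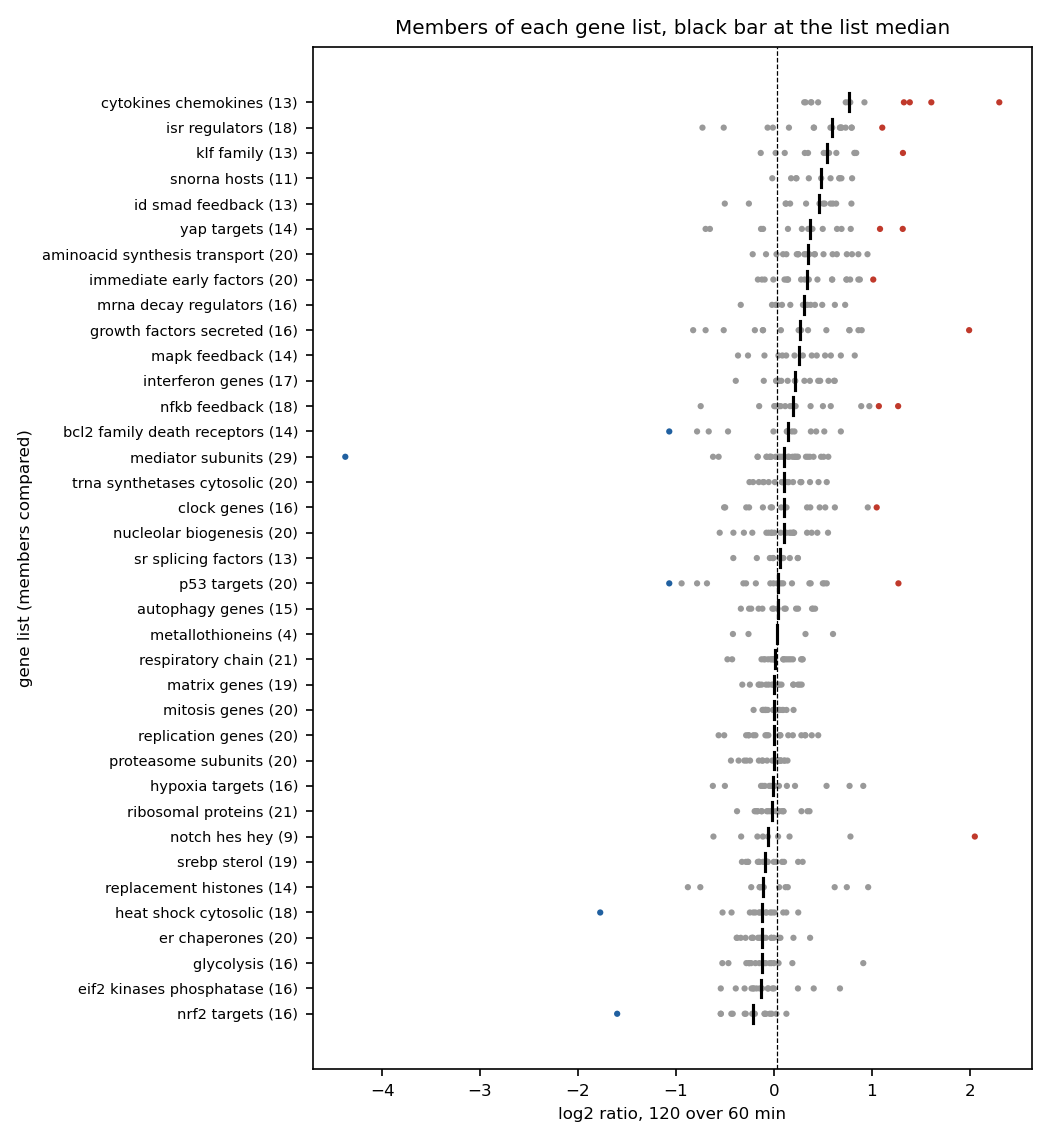
Each point is the log2 ratio of 120 over 60 min of 1 gene, in rows by gene list with the number of members compared, red where called higher and blue where called lower, black bars at list medians and a dashed line at the median of all genes (0.03). Cytokines and ISR regulators have the highest medians (0.76 and 0.59) and NRF2 targets the lowest (-0.21), and MED18 lies alone at -4.38 among the Mediator subunits.

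Other lists held 1 or 2 called genes. Among secreted growth factors, INHBE, an activin subunit, was the 1 higher gene of 16 (6.25%, median 0.27), with 18 and 77 counts (3.98-fold, 2.36 to 7.07). VEGFA, the vascular growth factor, stood at 390 and 666 CPM (1.71-fold, 1.63 to 1.79), and the hormone STC2 at 294 and 501 CPM (1.71-fold, 1.62 to 1.80). In the YAP target list 2 of 14 were higher (14.3%, median 0.37): LATS2, the kinase that inhibits YAP, at 44.7 and 94.7 CPM (2.12-fold, 1.85 to 2.43), and the kinase NUAK2 (shared reads) at 7.38 and 18.4 CPM (2.49-fold, 1.80 to 3.49). CTGF, the usual marker of YAP activity, lay the other way at 77.8 and 48.0 CPM (0.617-fold, 0.539 to 0.706). DLL1, a Notch ligand, had 11 and 49 counts (4.15-fold, 2.13 to 8.85) and was the 1 higher gene of 9 in the Notch list (11.1%, median -0.06), while the Notch target HES1 stood at 219 and 225 CPM (1.03-fold, 0.961 to 1.10). In the p53 list of 20 (median 0.04), GADD45B, a growth arrest gene that stress also induces without p53, was higher at 67.8 and 164 CPM (2.42-fold, 2.17 to 2.69), and BAX, an effector of apoptosis, was lower at 23.0 and 11.0 CPM (2.10-fold lower, 1.60 to 2.76). ID and SMAD feedback genes had 0 of 13 called and a median of 0.47, with ID1 at 993 and 832 CPM (0.838-fold, 0.810 to 0.867) and ID3 at 273 and 424 CPM (1.55-fold, 1.47 to 1.65). Over all 37 lists together, leaving out cell type markers, 15 of 600 genes were higher (2.50%) and 4 lower (0.667%). The shares over all genes compared were 0.986% and 1.86%.

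The higher genes with intervals farthest from equality included several from near silence. LINC00473, a long non-coding RNA known to respond to cAMP signalling, had 3 counts at 60 min and 35 at 120 min (10.9-fold, 3.42 to 55.2), and 1 count at 0 min. CD69, an early activation marker of lymphocytes, had 1 and 21 counts (19.6-fold, 3.15 to 809), and the peptide hormone EDN2 had 2 and 22 (10.2-fold, 2.52 to 89.9). EDN2 had 8 counts at 0 min, and its log2 ratio of 120 over 0 min was 1.63. LINC00473, CD69 and EDN2 passed the count minimum only through the 120 min library. SIK1, a salt-inducible kinase that restrains CREB coactivators, was better counted, at 81 and 330 counts, or 11.5 and 43.6 CPM (3.79-fold, 2.97 to 4.90). SIK1 had been at 5.65 CPM at 0 min and stood at 42.9 CPM at 240 min, close to its 120 min level. EFNA1, an ephrin ligand, stood at 13.2, 16.6, 49.4 and 50.7 CPM at 0, 60, 120 and 240 min (2.98-fold over the second hour, 2.41 to 3.70), and then at 3.54 CPM at 720 min. BDKRB2, the bradykinin receptor B2, was at 7.09, 22.2 and 10.2 CPM at 60, 120 and 240 min (3.13-fold over the second hour, 2.27 to 4.38). SOCS3, the feedback inhibitor of IL-6 family receptors, was among the best counted higher genes, with 1503 and 3516 counts, 213 and 465 CPM (2.18-fold, 2.05 to 2.32). LINC00673, a non-coding RNA, stood at 14.5 and 40.6 CPM (2.80-fold, 2.23 to 3.54).

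Among the 15 higher genes with intervals farthest from equality, SERPINB2, FLG and UBD had been lower at 60 min than in unlit cells, with intervals that excluded equality. SERPINB2, an inhibitor of plasminogen activators, stood at 37.2, 15.3, 43.3 and 44.5 CPM at 0, 60, 120 and 240 min (2.83-fold over the second hour, 2.27 to 3.55). FLG, the epidermal protein filaggrin, stood at 17.8, 12.2, 38.3 and 41.6 CPM at the same times (3.14-fold, 2.46 to 4.04), and UBD, described above, was alike. In SERPINB2 the second hour thus brought the level to near that of unlit cells, whereas FLG and UBD passed it. KRTAP2-3, a hair keratin-associated protein with near-identical relatives and shared reads, was at 11.9, 14.6, 53.9 and 67.6 CPM (3.69-fold, 2.96 to 4.62).

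**Figure D3:**
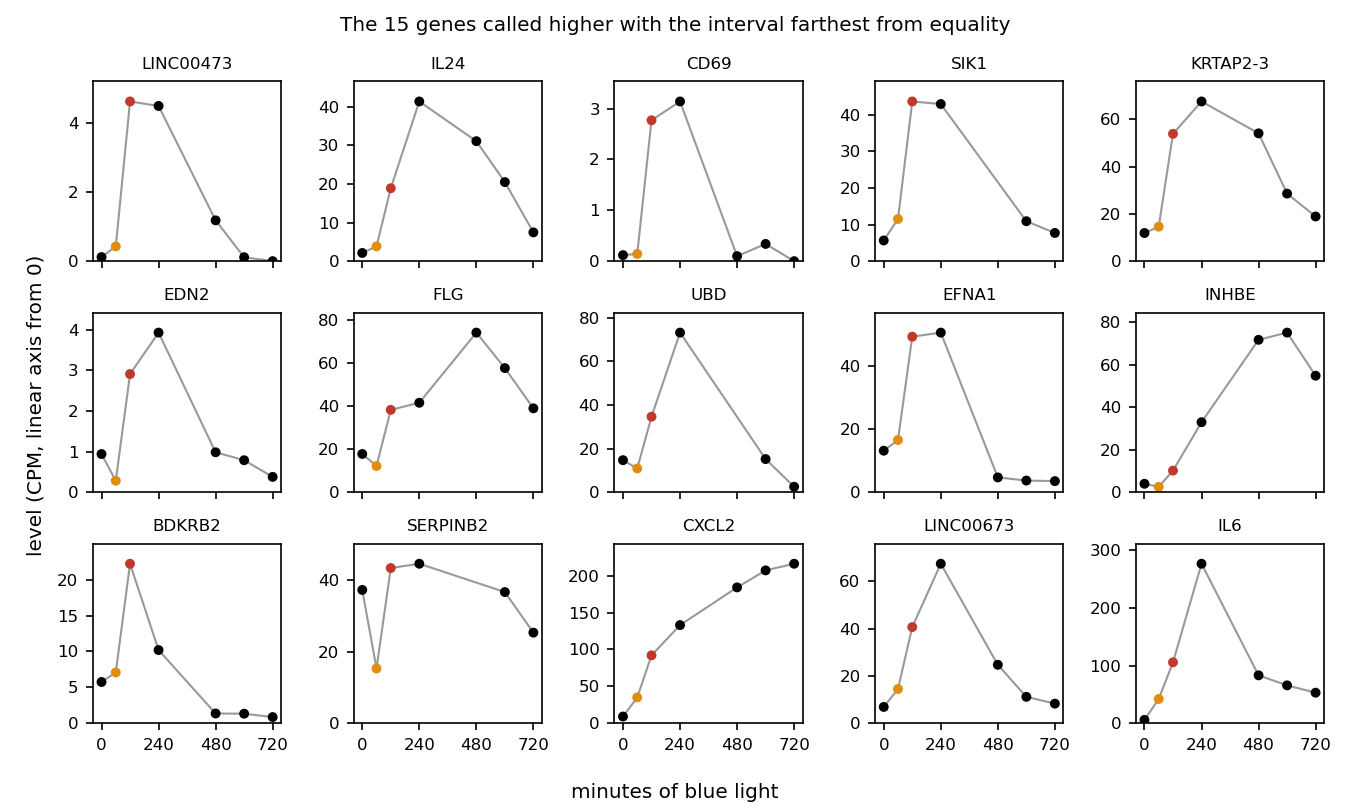
Level in CPM (linear axis from 0, scaled separately in each panel) against minutes of light for the 15 higher genes with intervals farthest from equality, 1 library per point, with 60 min in orange, 120 min in red and no 480 min point for genes not listed there. The 120 min point is above the 60 min point in each, and only some, such as BDKRB2, are lower again at 240 min.

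The lower genes differed from the higher ones in how they were counted. A UMI count that was not a whole number (tolerance 1e-06) was taken as a sign that a gene shares reads with others. Such counts were found for 148 of the 234 lower genes (63.2%), for 22 of the 124 higher genes (17.7%) and for 2570 of all 12571 (20.4%). Among genes sharing reads 5.76% were lower and 0.856% higher, and among the 10001 others 0.860% were lower and 1.02% higher. Without the former, 102 genes were higher and 86 lower, so that the larger number of lower genes rested on genes with this sign. The sign misses some genes that share a sequence. HIST2H4A and HIST2H4B had the same counts at every time, 12 at 60 min and 31 at 120 min, but whole UMI counts. The genes left are therefore not a set free of shared reads. The part that read sharing plays in these differences was not tested. Genes described below have whole counts unless stated.

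MED18, a subunit of the head of Mediator, the complex that links transcription factors to RNA polymerase II, was the lower gene with the interval farthest from equality. It had 116 counts at 60 min and 6 at 120 min, 16.5 and 0.793 CPM, a level 20.8-fold lower (9.25 to 57.7). It had stood at 9.53 CPM at 0 min, stayed at 1.80 CPM at 240 min and 2.25 at 600 min, and was at 6.69 CPM at 720 min. No other member was called among the 29 Mediator subunits compared (3.45% lower, list median 0.10): MED1 stood at 124 and 83.9 CPM (0.677-fold, 0.610 to 0.750) and MED13 at 146 and 186 CPM (1.27-fold, 1.17 to 1.38). PFDN6, a subunit of the prefoldin chaperone, showed a like sequence of levels, at 12.1, 1.85, 1.01 and 19.2 CPM at 60, 120, 240 and 720 min (6.52-fold lower over the second hour, 3.68 to 12.4).

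PCBP2, a poly(C)-binding protein that acts on mRNA stability and translation, had 3402 and 1180 counts, 483 and 156 CPM (3.10-fold lower, 2.90 to 3.31). Its level had been 429 CPM at 0 min and was 176 at 240 min, 307 at 600 min and 436 at 720 min. CBX6, a reader subunit of Polycomb complexes, had 554 and 142 counts, 78.6 and 18.8 CPM (4.19-fold lower, 3.48 to 5.07), and 85.8 CPM at 720 min. ALYREF, an mRNA export adaptor, went from 126 to 44.9 CPM (2.81-fold lower, 2.48 to 3.19). CDK9, the kinase that releases paused RNA polymerase II, had 179 and 92 counts (2.09-fold lower, 1.62 to 2.72). FCF1, which acts in ribosomal RNA processing and shares reads, had its lowest level at 120 min: its 0, 60, 120 and 240 min levels were 22.5, 39.0, 6.61 and 24.8 CPM (5.91-fold lower over the second hour, 4.36 to 8.15). ZNF397, a zinc finger protein, had been higher at 60 min than at any other complete time, at 8.12, 20.9, 5.28 and 6.96 CPM at 0, 60, 120 and 240 min (3.95-fold lower over the second hour, 2.77 to 5.75).

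The calls of PPIB and AKT1S1 depended on how UMIs were counted. PPIB, a proline isomerase of the ER, had 4701 and 2304 transcript counts, 667 and 304 CPM (2.19-fold lower, 2.08 to 2.30). AKT1S1, the mTORC1 inhibitor PRAS40, had 2750 and 1460, 390 and 193 CPM (2.02-fold lower, 1.90 to 2.16). At such counts the deposited correction for UMI collisions is large, and on the uncorrected UMI counts both lay under 2-fold (log2 ratios -0.77 and -0.80), as did SOCS3 among the higher genes (0.81). ERAP1, an ER aminopeptidase that trims antigenic peptides, stood at 97.3 and 39.4 CPM (2.47-fold lower, 2.15 to 2.84). The ER chaperone list as a whole had 0 of 20 called and a median of -0.12, with 9 intervals below equality and 3 above. HSPA5, the chaperone BiP, was at 573 and 453 CPM (0.791-fold, 0.756 to 0.828), and CALR, a lectin chaperone, at 248 and 192 CPM (0.771-fold, 0.719 to 0.827).

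NRF2 targets, the antioxidant genes, had 1 lower member of 16 (6.25%) and the lowest median of the 37 lists other than cell type markers, -0.21, with 2 of 16 above equality and 10 intervals below it. The lower member was HMOX1, haem oxygenase 1, at 18.2, 29.2, 9.64 and 7.52 CPM at 0, 60, 120 and 240 min (3.03-fold lower over the second hour, 2.31 to 4.01), and 109 CPM at 720 min. FTL, the ferritin light chain, stood at 1990 and 1470 CPM (0.740-fold, 0.722 to 0.759), SRXN1, sulfiredoxin, at 258 and 178 CPM (0.687-fold, 0.640 to 0.738), and the oxidative stress gene OSGIN1 at 58.3 and 40.0 CPM (0.687-fold, 0.590 to 0.798). Cytosolic heat shock genes had 1 lower member of 18 (5.56%, median -0.12). It was HSPA1B, an inducible HSP70 gene, at 54.2 and 15.9 CPM (3.42-fold lower, 2.78 to 4.23). The near-identical HSPA1A stood at 53.2 and 37.0 CPM (0.695-fold, 0.593 to 0.814), and both share reads, so the division between them is uncertain. HSP90AB1, a constitutive HSP90, stood at 1730 and 1710 CPM (0.987-fold, 0.963 to 1.01). At the counts of FTL (14008 and 11138) and HSP90AB1 (12227 and 12962) the correction for UMI collisions is large. Their intervals do not cover it. The lists for glycolysis, mitosis, ribosomal proteins and the respiratory chain had 0 called, with medians of -0.13, 0.00, -0.02 and 0.01.

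**Figure D4:**
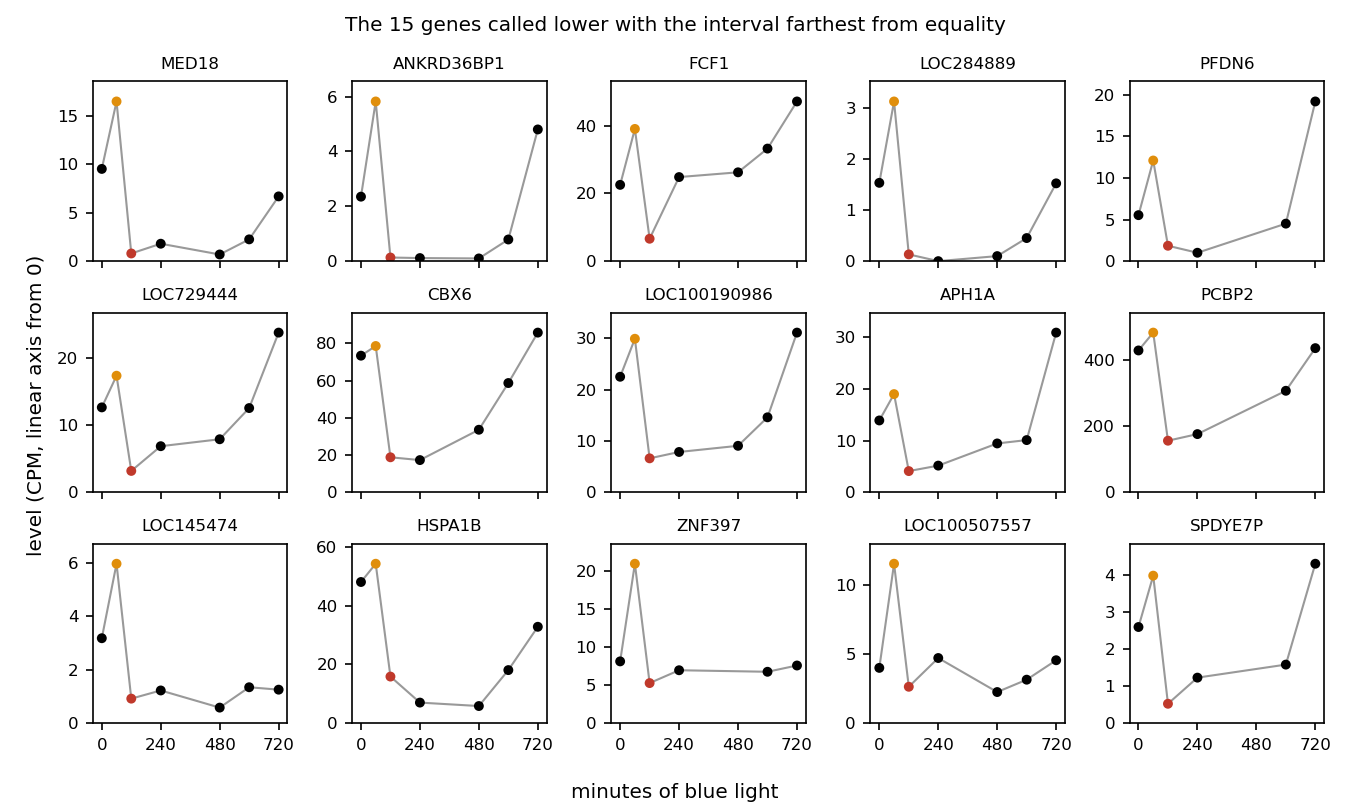
Level in CPM (linear axis from 0, scaled separately in each panel) against minutes of light for the 15 lower genes with intervals farthest from equality, 1 library per point, with 60 min in orange, 120 min in red and no 480 min point for genes not listed there. The 120 min point is below both the 0 and the 60 min point in all 15 panels, and most panels climb again by 720 min.

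The second-hour genes were then looked up at times that share no library with the comparison. At 240 against 0 min, 11.2% of 12903 genes were higher and 6.95% lower by the same rule. Of the 124 genes higher at 120 min, 89 (71.8%) were higher at 240 than at 0 min, 1 (0.806%) was lower, and the median log2 ratio was 1.60 (quartiles 0.80 and 2.57), against 0.03 over all genes. Of the 225 lower genes that could be compared, 135 (60.0%) were lower at 240 than at 0 min and 4 (1.78%) higher, with a median of -1.17. Without genes that share reads, 73 of 102 higher genes and 37 of 81 lower genes kept the direction past the call, with medians of 1.60 and -0.92. Of all compared genes not sharing reads, 5.47% were lower at 240 than at 0 min. Among the 0, 240, 600 and 720 min libraries, 92 of the 124 higher genes (74.2%) had their highest level at 240 min, as had 36.6% of all genes. On the lower side 185 of 234 (79.1%) had their lowest level at 240 min, as had 28.4% of all.

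At 720 against 0 min, 95 of the 124 higher genes and 225 of the 234 lower genes could be compared. At 600 against 0 min the medians were 0.78 for the higher and -0.59 for the lower genes, and at 720 against 0 min 0.38 (95 genes compared) and 0.06 (225 genes), against -0.07 over all genes at 720 min. Without genes that share reads, the 720 min medians were 0.275 and 0.002. Genes under 20 counts at both times were left out, such as LINC00473 and CD69, each with 1 count at 0 min and 0 at 720 min. The median of the higher genes therefore does not cover genes that were near silence at both ends. Genes scarce at 0 min were compared only if still well counted at 720 min. The medians thus do not show which set lay nearer to the unlit level. IL24 was still at 7.45 CPM at 720 min against 2.12 at 0 min, and CXCL2 at 216 against 9.29 CPM, while GADD45B (14.9 against 15.3 CPM) and TNFAIP3 (5.30 against 6.47 CPM) were near their unlit levels. INHBE was higher still after the second hour, at 10.2, 33.0, 75.2 and 54.9 CPM at 120, 240, 600 and 720 min.

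**Figure D5:**
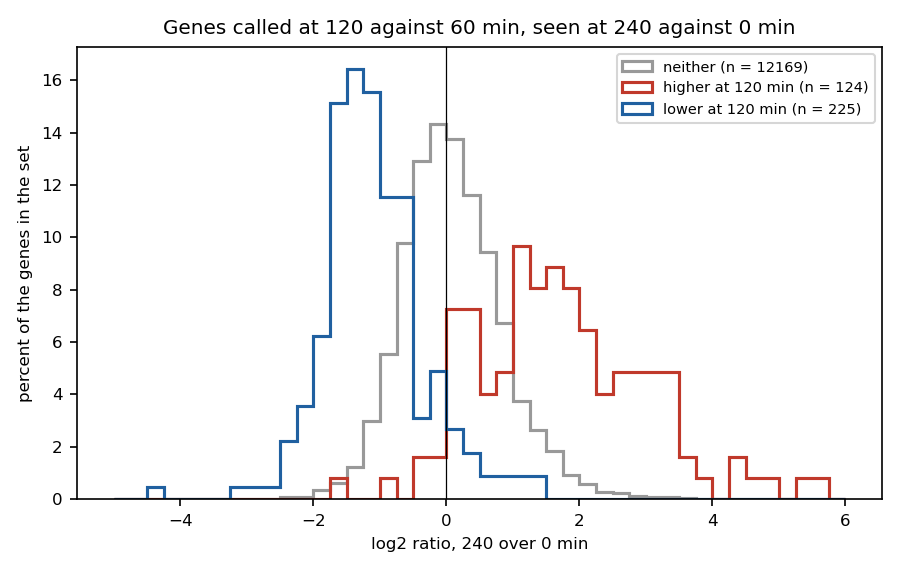
The log2 ratio of 240 over 0 min (across) against the percent of genes in each set (upward), for genes higher at 120 than at 60 min (red, n = 124), lower (blue, n = 225) and neither (grey, n = 12169). The red outline centres on a median of 1.60 and the blue on -1.17, with the grey around 0.03.

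In gene structure the sets also differed in their makeup. Of the genes matched in the RefSeq gene table, 21.8% of the lower genes were not protein-coding, against 7.56% of the higher and 4.81% of all genes compared. The median span from the first to the last base of the gene was 19.4 kb for the lower, 33.0 kb for the higher and 30.9 kb for all genes. Several neighbouring or duplicated genes were counted as separate entries, such as RFFL with RAD51L3-RFFL, HIST2H4A with HIST2H4B and SNAR-B1 with SNAR-B2, so the numbers of called genes include some that share a sequence.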

How the data were processed

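RNA was measured in 7 libraries of H4 cells with opto-PKR, 1 per time of blue light; those of 60 and 120 min were compared. The authors deposited expected counts, which may be fractional, of reads, UMIs and collision-corrected transcripts per gene, in 96 barcode columns; column 4, the primer named in the labels, was used. Per the submitters' processing notes, BWA and hg19 were used; versions, annotation, counting program and the treatment of reads matching several genes are not given in the sources used. Transcript counts were rounded, and spike-in RNA (0.00845% and 0.00767% of transcripts at 60 and 120 min) was dropped. Ratios of counts over library totals were given exact binomial 95% intervals, which take corrected counts as plain counts (Python 3.11.15, scipy 1.17.1, pandas 2.3.3). A gene at 0 was set to 3 counts. The code was tested on simulated data. The 480 min table stops at NME1-NME2 and holds only part of its library; it was drawn after scaling by the share of its genes in the 6 complete tables (51.8%), and genes named later were treated as missing there.

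Alternatives were UMI or read counts, TMM and RLE scaling (edgeR 4.0.16 in R 4.3.3), thinning to the smaller library, other count minimums and folds; leaving out genes that share reads, or those over 3800 UMIs, was added after the data were seen. The comparison, its genes and the 42 gene lists were chosen with earlier results of these data known. Named by rule were the 15 genes per direction with the interval farthest from equality, called list members, in lists with fewer than 2 called the most abundant up to 2, and ATF4, DDIT3, ATF3, PPP1R15A, TRIB3, CHAC1 and EIF2AK2; other genes named, the motifs and the promoters shown were chosen after values were seen. Matching by symbol found 96.0% of higher, 92.3% of lower and 97.6% of all compared genes in RefSeq's table, whose build differs from that of the files, so only promoter windows carry coordinates.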

Additional observations from a re-analysis of the deposited data

Results flagged for a closer look

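Barcode columns other than the one named in the labels were not used for any comparison, and held 0.0749% of the UMIs in the 60 min table. The same share was 0.0743% at 0 min and 0.0572% at 120 min.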

How the results depend on the processing

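No paired analysis was possible because each time has 1 library and therefore no numbered replicates to pair, and leaving out a replicate was not possible for the same reason. The counts of 124 higher and 234 lower genes became 70 and 130 with a minimum of 50 counts, and 645 and 630 at 1.5-fold, where 27 in place of 15 gene lists held a called gene. Without genes that share reads 102 genes were higher and 86 lower. The other settings gave 115 to 169 higher and 221 to 292 lower genes. The share of higher genes also higher at 240 than at 0 min, 71.8%, was 81.2% with a minimum of 50 counts and 60.0% with none. The share of lower genes also lower, 60.0%, was 51.4% on read counts, 52.9% with no minimum, 68.1% at 1.5-fold and 45.7% without genes that share reads. Beside the 45.7%, 5.47% of all compared genes not sharing reads were lower at 240 than at 0 min. The all-gene shares of 11.2% and 6.95% hold for the main rule only. Those at the other settings are not given here, so these shares cannot be ranked between settings. No named gene changed direction with UMI or read counts, TMM or RLE scaling, or thinning. Under 2-fold fell EGR2 (0.98 on UMIs, 0.99 with TMM), GAD1 (0.99 with TMM), NFIL3 (0.99 on UMIs) and NR1D1 (0.96 on reads), beside PPIB, AKT1S1 and SOCS3 on UMIs, and EDN2 fell under the count minimum after thinning. On UMIs the correction for collisions is left out; the other causes were not tested. Depth limits scarce genes most: 4574 genes with a count at 60 or 120 min fell under the minimum of 20.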

Other observations

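Some subunits of gamma-secretase, the membrane protease that cuts Notch and the amyloid precursor protein, were far apart in the second hour. They were picked out after their values were seen. APH1A, a scaffold subunit, stood at 13.9, 19.0, 4.10, 5.16 and 30.9 CPM at 0, 60, 120, 240 and 720 min (4.64-fold lower over the second hour, 95% interval 3.12 to 7.10). PSENEN, the smallest subunit, stood at 112, 91.4, 29.9, 24.7 and 119 CPM at the same times (3.06-fold lower, 2.63 to 3.58). Of the others, these were not called: the APH1A paralog APH1B stood at 5.96 and 7.93 CPM at 60 and 120 min (1.33-fold, 0.882 to 2.02), NCSTN at 141 and 114 CPM (0.811-fold, 0.739 to 0.889) and PSEN2 at 16.3 CPM at both times (0.996-fold, 0.766 to 1.30).

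VHL, the substrate receptor for degradation of hypoxia-inducible factors, stood at 112 and 46.4 CPM (2.40-fold lower, 2.12 to 2.74) and shares reads with other genes. The hypoxia target list had 0 of 16 called and a median log2 ratio of -0.01, with 3 intervals above equality and 3 below. Of its members, ADM, adrenomedullin, stood at 389 and 360 CPM (0.925-fold, 0.877 to 0.975). VEGFA, described above, is also in this list and stood at 390 and 666 CPM (1.71-fold, 1.63 to 1.79). Interferon genes had 0 of 17 called and a median of 0.21, with IRF1 (shared reads) at 178 and 272 CPM (1.53-fold, 1.43 to 1.64) and IFI27 at 222 and 228 CPM (1.03-fold, 0.961 to 1.10). GAD1, which makes the transmitter GABA, was the 1 higher gene of 4 neuronal markers compared (25.0%), at 8.94 and 18.1 CPM (2.02-fold, 1.49 to 2.77), while the neuronal gene SYT1 stood at 54.1 and 64.3 CPM (1.19-fold, 1.04 to 1.36).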
